A study of Mus musculus with 11 samples.

Results

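Calcium signalling in neurons was described through 10 named genes: the calmodulin-dependent kinase genes Camk2a, Camk2b and Camk4, the kinase-like gene Camkv, the sensor genes Vsnl1 and Hpca, the CaMKII-binding gene Ncdn, the calcineurin gene Ppp3ca and the store release channel genes Ryr2 and Itpr1. They were chosen by symbol, from the probe sets that the platform annotation gives a single gene, with the highest-mean probe set standing for a gene. These genes and the lists used below were chosen with earlier results of these data known. The shares of all genes printed beside their counts are thus no independent test of the group. In all, 9 of the 10 were found among the 16527 genes tested, each through exactly 1 probe set, and Itpr1 was not analysed here. All 9 passed the filter on low values, which asked for a value above the 25th percentile of its array on at least 2 arrays. A further 32 probe sets list Camkv together with other symbols and were left out.

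RNA came from dentate gyrus cells of P35 mice (35 days after birth), microdissected from 750 µm slices, dissociated and sorted by flow cytometry, then amplified and hybridised to Mouse Gene 1.0 ST microarrays made by Affymetrix. The groups were 4 mouse lines that carry green fluorescent protein (GFP) reporters: NesGFP (a Nestin transgene, 3 arrays), kiTbr2GFP (GFP knocked in at Eomes, the gene of Tbr2, 3 arrays), tgTbr2GFP (a bacterial artificial chromosome transgene of Eomes, 3 arrays) and PomcGFP (a pro-opiomelanocortin transgene, 2 arrays). Each line thus marks cells by the activity of 1 promoter, no line without a reporter was among the groups, and the series was designed to find genes of the developing stem cell niche. The labels do not say how many animals gave each array, nor whether a line's arrays stem from different animals, so the p-values measure only the spread between these arrays, which may be technical.

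Nestin is a filament protein of neural stem cells, Tbr2 the transcription factor that marks intermediate progenitors, and Pomc-driven GFP is known in the dentate gyrus as a mark of newborn granule neurons. Calcium enters a neuron through channels of the membrane or leaves the endoplasmic reticulum through ryanodine and inositol trisphosphate receptors. It then binds calmodulin, which switches on the CaM kinases and the phosphatase calcineurin, and it binds smaller sensor proteins such as visinin-like protein 1 and hippocalcin, which move to membranes when loaded. These genes are known for synaptic plasticity, and many of them are abundant in mature hippocampal neurons.

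Values are the deposited log2 expression values, so a difference of 1 between arrays is a doubling of signal. Array medians lay between 7.0 and 7.15, and the 25th percentile between 5.90 and 6.20. The 75th percentile was higher on the NesGFP arrays (8.23 to 8.35) than on those of the other lines (8.10 to 8.18). NesGFP arrays stood apart from the rest: across genes they correlated with the other lines at r of 0.766 to 0.839, while r among those other lines was 0.933 or more. The reporters' own genes were highest in the lines named for them, or on the edge of it, since Nes and Pomc lay near the array medians even there. Nes was listed at 6.91 to 7.63 on the NesGFP arrays and at 5.78 to 6.25 elsewhere, Eomes at 9.83 to 10.39 on the arrays of both Tbr2 lines and at 7.35 to 9.23 elsewhere, and Pomc at 7.22 to 7.27 on PomcGFP arrays and at 6.48 to 7.08 elsewhere. Lists of cell type markers were read on each array, and some of their genes may be expressed by the marked cells themselves. The NesGFP arrays had mean marker levels of 10.41 to 10.55 for astrocytes, 10.86 to 11.05 for oligodendrocytes, 9.99 to 10.19 for endothelial cells and 9.83 to 9.86 for mural cells. On the arrays of the other lines these lists reached at most 9.14, 9.33, 7.33 and 7.75. Of the endothelial list, Slco1a4 and Emcn were below the 25th percentile on every kiTbr2GFP array. Within tgTbr2GFP, replicate 1 held more oligodendrocyte marker signal (9.33) than replicates 2 and 3 (7.26 and 7.64). Immature neuron markers were at 10.06 to 10.19 in kiTbr2GFP, 9.87 to 10.03 in tgTbr2GFP, 9.71 to 9.80 in PomcGFP and 9.02 to 9.21 in NesGFP.

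**Figure D1:**
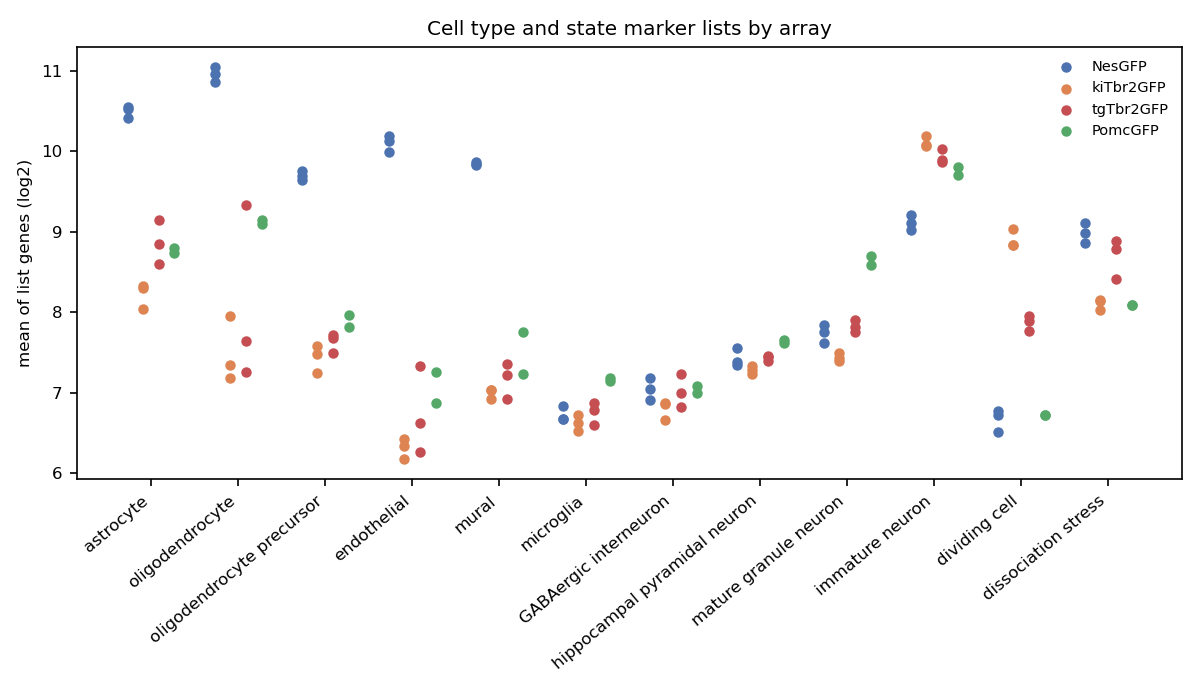
Mean log2 value of each fixed list of cell type markers (vertical axis, log2 expression) on each array, grouped by mouse line. The NesGFP arrays are highest for the astrocyte, oligodendrocyte, endothelial and mural lists, the kiTbr2GFP arrays for dividing cells (8.84 to 9.03) and the PomcGFP arrays for mature granule neurons (8.59 to 8.70).

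Every one of the 9 genes differed among the 4 lines by limma's F test (adjusted p from 8.02e-07 for Ncdn to 0.0102 for Camk4), a test that 43.4% of all genes passed. Their line means followed a shared order at its upper end: the PomcGFP mean was the highest for 9 of 9 genes. The kiTbr2GFP mean was the lowest for 8, and the exception was Ppp3ca, whose lowest mean was in NesGFP. In these sorted bulk samples, fewer cells that express a gene and less RNA per cell cannot be told apart. PomcGFP replicate 1 read above replicate 2 for all 9 genes, and tgTbr2GFP replicate 1 was the highest array of its line for 7 of them.

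**Figure D2:**
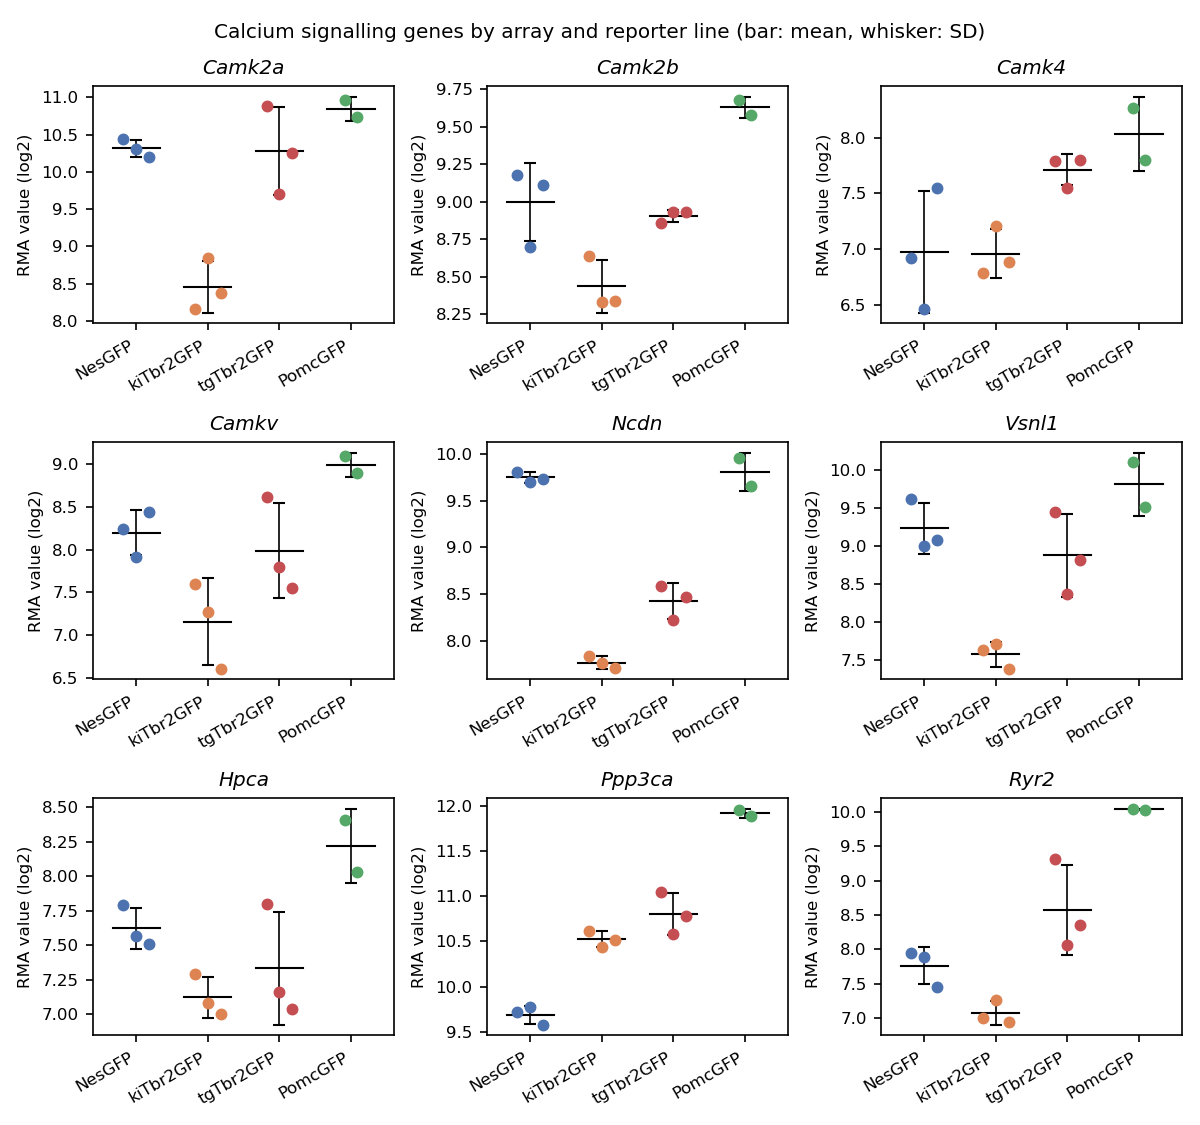
Log2 expression (vertical axis) of the 9 genes on each of the 11 arrays, with points for arrays, horizontal bars for line means and whiskers for the SD, by mouse line and with a separate vertical scale for each gene. The PomcGFP mean is the highest for every gene, with no overlap with any other line for Camk2b, Camk4, Camkv, Hpca, Ppp3ca and Ryr2.

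Among the kinases, Camk2a encodes the alpha subunit of CaMKII, the abundant synaptic kinase. Its values were 10.44, 10.30 and 10.20 in NesGFP, 8.16, 8.84 and 8.37 in kiTbr2GFP, 10.88, 9.70 and 10.25 in tgTbr2GFP and 10.96 and 10.73 in PomcGFP. The kiTbr2GFP arrays were low and touched no other line, while the other 3 lines lay close together and tgTbr2GFP replicate 1 overlapped PomcGFP. kiTbr2GFP was below NesGFP by a log2 difference of -1.86 ± 0.26 (SE, 3 arrays against 3; limma adjusted p = 0.000129), a 3.62-fold lower signal. The difference between tgTbr2GFP and NesGFP was -0.04, with a 95% interval from -0.60 to 0.53 (adjusted p = 0.928).

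Camk2b, the beta subunit, which anchors CaMKII to actin, had a narrower range. It was at 9.18, 8.70 and 9.11 in NesGFP, 8.64, 8.33 and 8.34 in kiTbr2GFP, 8.86, 8.93 and 8.93 in tgTbr2GFP and 9.68 and 9.58 in PomcGFP. The PomcGFP arrays lay above all others, and those of kiTbr2GFP below all others. In order of means, PomcGFP stood above NesGFP by 0.63 ± 0.16 (adjusted p = 0.00774), and without PomcGFP replicate 1 this difference was 0.58 with an adjusted p of 0.0628. The next neighbours, NesGFP with tgTbr2GFP (0.09, adjusted p = 0.668) and tgTbr2GFP with kiTbr2GFP (0.47, adjusted p = 0.193), did not pass the test.

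Camk4 encodes a nuclear CaM kinase that phosphorylates CREB. Its values were 6.92, 6.46 and 7.55 in NesGFP, 6.79, 7.21 and 6.88 in kiTbr2GFP, 7.79, 7.55 and 7.80 in tgTbr2GFP and 8.27 and 7.80 in PomcGFP. It had the widest spread within NesGFP of all 9 genes (SD 0.55), and the kiTbr2GFP arrays lay inside the NesGFP range, while those of tgTbr2GFP and PomcGFP were above both. The lowest PomcGFP array and the highest tgTbr2GFP array, and likewise the lowest tgTbr2GFP and the highest NesGFP array, differed by less than the rounding of these values. tgTbr2GFP was above NesGFP by 0.74 ± 0.24 (adjusted p = 0.0286), a call that was lost without NesGFP replicate 1 or 2 or tgTbr2GFP replicate 1 or 3 (adjusted p from 0.0692 to 0.104) and with only these 2 lines fitted (0.0621).

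Camkv encodes a kinase-like protein of synaptic vesicles and spines that lacks kinase activity. It was at 8.24, 7.92 and 8.44 in NesGFP, 7.60, 7.27 and 6.61 in kiTbr2GFP, 8.61, 7.80 and 7.55 in tgTbr2GFP and 9.09 and 8.89 in PomcGFP. Both PomcGFP arrays were above all 9 others, and kiTbr2GFP lay below NesGFP but met the lowest tgTbr2GFP array. kiTbr2GFP was below NesGFP by -1.04 ± 0.29 (adjusted p = 0.0123), and this became -0.76 with an adjusted p of 0.0564 without kiTbr2GFP replicate 3.

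The calcium sensor Vsnl1 encodes visinin-like protein 1, which binds membranes when loaded with calcium. Its values were 9.61, 8.99 and 9.08 in NesGFP, 7.62, 7.70 and 7.38 in kiTbr2GFP, 9.44, 8.36 and 8.81 in tgTbr2GFP and 10.10 and 9.51 in PomcGFP. kiTbr2GFP was low on all 3 arrays with no overlap, tgTbr2GFP overlapped NesGFP, and PomcGFP replicate 2 lay below the highest NesGFP array. kiTbr2GFP was below NesGFP by -1.66 ± 0.26 (adjusted p = 0.000356), a 3.15-fold lower signal.

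Hpca encodes hippocalcin, a related sensor with a role in long-term depression. It read 7.79, 7.57 and 7.51 in NesGFP, 7.29, 7.08 and 7.0 in kiTbr2GFP, 7.80, 7.16 and 7.04 in tgTbr2GFP and 8.41 and 8.03 in PomcGFP. The PomcGFP arrays were above all others, whereas tgTbr2GFP covered the whole range of NesGFP and most of that of kiTbr2GFP. No neighbouring pair of lines differed in Hpca except PomcGFP and NesGFP (0.60 ± 0.22, adjusted p = 0.0457), and that call was lost under 13 of 20 alternative settings, with an adjusted p of 0.304 without PomcGFP replicate 1. The other arrays whose removal ended it were PomcGFP replicate 2, any of kiTbr2GFP, NesGFP replicate 2 or 3 and tgTbr2GFP replicate 2 (0.0536 to 0.0919).

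Ncdn encodes neurochondrin, a neuronal protein that binds CaMKII and restrains its phosphorylation. It was at 9.81, 9.70 and 9.73 in NesGFP, 7.84, 7.76 and 7.71 in kiTbr2GFP, 8.59, 8.22 and 8.47 in tgTbr2GFP and 9.95 and 9.66 in PomcGFP. Arrays of a line lay within 0.36 of each other, and NesGFP and PomcGFP overlapped while each Tbr2 line formed a separate, lower group. The difference between PomcGFP and NesGFP was 0.06 with a 95% interval from -0.24 to 0.36 (adjusted p = 0.766). tgTbr2GFP was below NesGFP by -1.32 ± 0.12 (adjusted p = 7.83e-06) and kiTbr2GFP by -1.97 ± 0.12 (adjusted p = 3.96e-07).

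The phosphatase gene Ppp3ca encodes the alpha isoform of the catalytic subunit of calcineurin. Its values were 9.72, 9.77 and 9.58 in NesGFP, 10.62, 10.44 and 10.52 in kiTbr2GFP, 11.04, 10.58 and 10.78 in tgTbr2GFP and 11.95 and 11.88 in PomcGFP. Its order differed from that of the other 8 genes, with NesGFP lowest, the Tbr2 lines overlapping in between and PomcGFP above all. PomcGFP exceeded NesGFP by 2.23 ± 0.14 (adjusted p = 1.25e-06), a 4.69-fold difference. The 2 Tbr2 lines differed by -0.27 (kiTbr2GFP minus tgTbr2GFP, 95% interval -0.55 to 0.00, adjusted p = 0.561).

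Ryr2 encodes a ryanodine receptor, a channel that releases calcium from the endoplasmic reticulum. It was at 7.95, 7.89 and 7.45 in NesGFP, 7.01, 7.27 and 6.95 in kiTbr2GFP, 9.31, 8.06 and 8.36 in tgTbr2GFP and 10.04 and 10.03 in PomcGFP. The lines formed 4 groups with no shared range, from kiTbr2GFP through NesGFP and tgTbr2GFP to PomcGFP, and the spread was widest in tgTbr2GFP (SD 0.65). PomcGFP exceeded NesGFP by 2.28 ± 0.30 (adjusted p = 0.000117) and kiTbr2GFP by 2.96 ± 0.30 (adjusted p = 0.000189), a 7.78-fold difference and the widest between 2 lines among the 9 genes. tgTbr2GFP lay above NesGFP by 0.82 ± 0.27 (adjusted p = 0.0282), which became 0.45 with an adjusted p of 0.0695 without tgTbr2GFP replicate 1 and 0.66 with an adjusted p of 0.0821 without NesGFP replicate 3. Median centring, array weights and a fit of only these 2 lines also ended that call (adjusted p from 0.0520 to 0.235).

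Promoter sequences from RefSeq (build GRCm38.p6), matched by symbol, were read for 6 of the 9 genes, in 11 windows of 250 bases before a transcription start. Windows of Camk2a, Camk4 and Ppp3ca were not analysed here. The search of the members skipped entries on 1 chromosome, which the set for all genes kept. A missing window thus does not mean that RefSeq lacks an entry. The window of Ryr2, the gene with the widest difference, and 1 window each of Vsnl1, Camkv and Camk2b are shown as examples whose letters can be compared. All 9 genes were highest in PomcGFP, so that does not set these 4 apart from Hpca and Ncdn, whose windows are not printed. Capitals mark E-boxes, the sequence bound by neuronal helix-loop-helix factors (letters CAGNTG, or CANCTG on the other strand), and GC boxes, the sequence bound by Sp factors (GGGCGG, or CCGCCC on the other strand). They lie at chr13:12106946-12107195 (minus strand, Ryr2), chr12:11436579-11436828 (minus strand, the upstream one of 2 starts of Vsnl1), chr9:107935670-107935919 (plus strand, Camkv) and chr11:6065749-6065998 (minus strand, Camk2b), and each is printed 5′ to 3′ towards the start.
Ryr2: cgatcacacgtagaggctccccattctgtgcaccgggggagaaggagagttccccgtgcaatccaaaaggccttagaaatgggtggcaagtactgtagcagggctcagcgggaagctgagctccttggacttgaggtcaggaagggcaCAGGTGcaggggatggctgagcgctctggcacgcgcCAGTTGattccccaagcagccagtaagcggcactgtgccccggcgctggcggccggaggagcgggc
Vsnl1: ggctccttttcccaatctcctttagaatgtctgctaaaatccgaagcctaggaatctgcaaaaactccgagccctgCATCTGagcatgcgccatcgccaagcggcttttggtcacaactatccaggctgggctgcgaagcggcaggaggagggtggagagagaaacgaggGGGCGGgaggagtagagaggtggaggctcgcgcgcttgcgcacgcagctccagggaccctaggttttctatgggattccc
Camkv: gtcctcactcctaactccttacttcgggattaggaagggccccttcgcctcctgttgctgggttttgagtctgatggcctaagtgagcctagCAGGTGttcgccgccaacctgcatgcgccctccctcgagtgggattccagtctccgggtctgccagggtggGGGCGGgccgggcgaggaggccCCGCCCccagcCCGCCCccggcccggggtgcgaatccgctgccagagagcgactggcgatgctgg
Camk2b: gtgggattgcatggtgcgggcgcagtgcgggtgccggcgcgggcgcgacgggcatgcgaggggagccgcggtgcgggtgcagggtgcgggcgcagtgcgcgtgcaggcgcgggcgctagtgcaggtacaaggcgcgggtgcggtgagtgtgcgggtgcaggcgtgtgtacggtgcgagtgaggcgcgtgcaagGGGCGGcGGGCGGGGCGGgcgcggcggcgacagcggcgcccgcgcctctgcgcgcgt
The Ryr2 window held 2 E-boxes, 102 and 66 bases from its start, and no GC box. The Vsnl1 window held 1 of each, that of Camkv 1 E-box and 3 GC boxes, and that of Camk2b 3 GC boxes, some overlapping, and no E-box. Over the 11 windows an E-box was present in 5 and a GC box in 7, beside 44.8% and 32.7% of 32851 windows of the same length for all genes. The 11 windows come from 6 genes, so some are starts of the same gene. Their G and C content ran from 41.6% to 78.4%, against 53.2% over all windows, and its part in these counts was not tested. The other Vsnl1 window and 1 Hpca window, which are not printed, held neither motif. The core of the cAMP response element (TGACG, or CGTCA on the other strand), which CREB binds, was in 0 of 11 windows and in 17.8% of all windows. These matches describe letters only, since the arrays measured no binding.

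PomcGFP, the newborn neuron reporter, was compared with both Tbr2 lines, the progenitor reporters. Of the 9 genes, 8 were higher in PomcGFP (limma adjusted p under 0.05), where 2.0% of all genes tested were higher. By limma 0 were lower, where 1.73% of all genes were, and at an unadjusted p under 0.05 also 0. The median difference of the 9 was 1.42, and over all genes it was 0.02. The 9 genes were chosen with earlier results of these data known, so their excess over all genes is not an independent test. Ryr2 led with 2.21 ± 0.27 (adjusted p = 0.000908, 4.62-fold), followed by Ncdn with 1.71 ± 0.12 (adjusted p = 7.15e-05) and Vsnl1 with 1.59 ± 0.26 (adjusted p = 0.00607). Camk2a, the kinase-like Camkv and Camk2b were higher by 1.48 ± 0.26, 1.42 ± 0.29 and 0.95 ± 0.14 (adjusted p = 0.00813, 0.0201 and 0.00303). Ppp3ca was higher by 1.25 ± 0.13 (adjusted p = 0.000357) and Hpca by 0.99 ± 0.19 (adjusted p = 0.0151). Camk4 did not pass, at 0.70 with a 95% interval from 0.17 to 1.23 (adjusted p = 0.179). For 8 genes both PomcGFP arrays lay above all 6 Tbr2 arrays (all but Camk2a), as for 8.74% of all genes.

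Only 2 PomcGFP arrays carry this comparison. Without replicate 1 the count of genes called was 3 (Ncdn, Ppp3ca and Ryr2), with adjusted p of 0.129 for Camk2a, 0.0645 for Camk2b, 0.214 for Camkv, 0.238 for Hpca and 0.133 for Vsnl1. Without replicate 2 it was 5, with 0.0708 for Camk2a, 0.128 for Camkv and 0.0574 for Hpca. The share of all genes called higher was 0.484% without replicate 1 and 0.781% without replicate 2. The differences of the 9 genes kept their direction in both cases. Beside these genes, 4 of 8 mature granule neuron markers were higher in PomcGFP (Calb1, C1ql3, Tdo2 and Dsp), with list means of 8.59 to 8.70 in PomcGFP, 7.40 to 7.49 in kiTbr2GFP and 7.76 to 7.91 in tgTbr2GFP. Of 7 dividing cell markers, 5 were lower, with list means of 6.73 in PomcGFP, 8.84 to 9.03 in kiTbr2GFP and 7.77 to 7.95 in tgTbr2GFP. Oligodendrocyte markers Mobp and Mbp were also higher (2 of 7, list means 9.09 to 9.15, against 7.19 to 9.33 over the Tbr2 arrays), as were the microglia markers C1qc and Cx3cr1 (2 of 7, 7.15 to 7.18 against 6.53 to 6.88), with P2ry12 below the 25th percentile in all lines. The interneuron marker Gad1 (1 of 7) and the pyramidal neuron marker Cpne4 (1 of 7) were higher too. Mean Gad1 was 7.83 in PomcGFP, 6.71 in kiTbr2GFP and 6.96 in tgTbr2GFP, and mean Cpne4 was 7.77, 6.39 and 6.73. Of the dissociation stress genes, 2 of 8 were lower (list means 8.09 against 8.03 to 8.89). The part these lists had in the result was not tested.

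Set against each Tbr2 line alone, which share the PomcGFP arrays, the gap to kiTbr2GFP covered all 9 genes (9 of 9 higher, where 2.9% of all genes were, and all 9 without overlap, as for 18.1%). These differences ran from 1.08 ± 0.27 for Camk4 (adjusted p = 0.0433) and 1.10 ± 0.22 for Hpca (adjusted p = 0.0123) to 2.96 for Ryr2, with a median of 1.83. Between them lay Vsnl1 at 2.24 ± 0.30 (adjusted p = 0.00103) and Camk2a at 2.39 ± 0.29 (adjusted p = 0.000643). The Camk4 call was lost under 12 of 20 alternatives (adjusted p of 0.0516 with the replicate number as a block, and 0.367 without PomcGFP replicate 1), that of Hpca without PomcGFP replicate 1 (0.160) or kiTbr2GFP replicate 3 (0.0514), and that of Camkv without PomcGFP replicate 1 (0.0802). The other arrays that Camk4 needed were NesGFP replicate 1, PomcGFP replicate 2 and any of kiTbr2GFP or tgTbr2GFP (0.0518 to 0.156). Beside these genes, 6 of 7 dividing cell markers were lower in PomcGFP than in kiTbr2GFP, and 5 of 8 mature granule neuron markers were higher. Also higher were 3 of 7 microglia, 2 of 7 oligodendrocyte, 2 of 6 oligodendrocyte precursor and 2 of 7 endothelial markers. So were Vtn (mural), S100b (astrocyte), Gad1 (interneuron) and Cpne4 (pyramidal neuron). Their part in the values was not tested. Against tgTbr2GFP, 3 of 9 genes were higher, where 0.545% of all genes were: Ncdn by 1.38 ± 0.14 (adjusted p = 0.000897), Ppp3ca by 1.12 ± 0.14 (adjusted p = 0.00411) and Ryr2 by 1.46 ± 0.30 (adjusted p = 0.0376). Here 8 genes had both PomcGFP arrays above all 3 tgTbr2GFP arrays, as had 15.9% of all genes. The Ryr2 call was lost under 11 of 20 alternatives, among them leaving out PomcGFP replicate 1 (0.251) or 2 (0.223), tgTbr2GFP replicate 2 (0.119) or 3 (0.139), or any kiTbr2GFP array (0.0590 to 0.0692), and the replicate block (0.0827), and the Ppp3ca call was lost without PomcGFP replicate 1 (0.0726). The smallest difference was that of Camk4, at 0.32 with a 95% interval from -0.27 to 0.91 (adjusted p = 0.856). Camk2a, the 1 gene whose arrays overlapped here, was at 0.56 with a 95% interval from -0.07 to 1.20 (adjusted p = 0.596). Of the markers, 5 of 7 for dividing cells were lower in PomcGFP than in tgTbr2GFP, as were the stress genes Fosb and Ier2. Higher were 3 of 8 mature granule neuron markers, Gad1 and Cpne4. The part of these markers was not tested either.

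**Figure D3:**
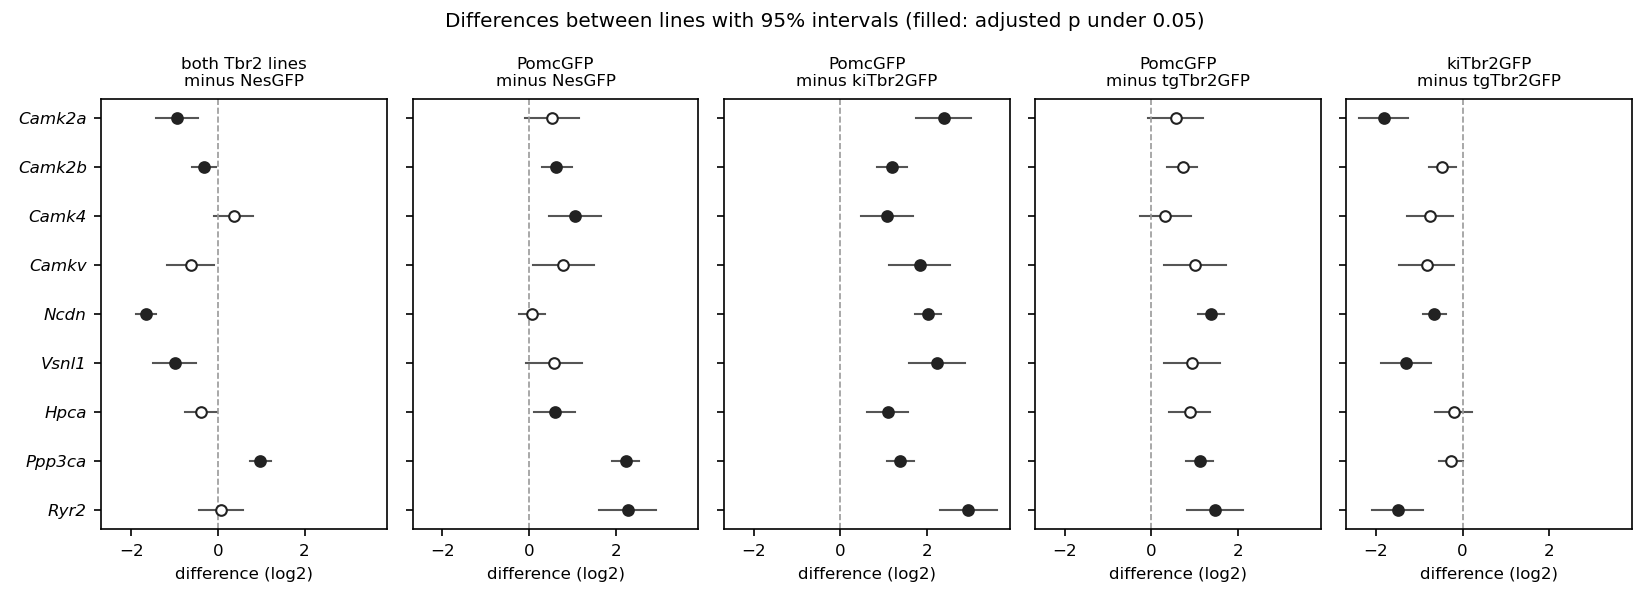
Log2 differences between lines (horizontal axis) of the 9 genes, with bars for 95% confidence intervals from the limma fit and filled points for adjusted p under 0.05. All 9 differences of PomcGFP from kiTbr2GFP lie to the right of 0, while those of both Tbr2 lines from NesGFP fall on both sides, from -1.65 for Ncdn to 0.98 for Ppp3ca.

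The 2 Tbr2 reporters, a knock-in and a transgene of the same gene, were also set against each other. By limma 0 of 9 genes were higher in kiTbr2GFP, where 0.436% of all genes were (also 0 at an unadjusted p under 0.05). Called lower were 4, where 0.684% of all genes were. Camk2a was lower by -1.82 ± 0.26 (adjusted p = 0.00878, 3.53-fold) and Ryr2 by -1.5 ± 0.27 (adjusted p = 0.0223). Vsnl1 was lower by -1.31 ± 0.26 (adjusted p = 0.0414) and Ncdn by -0.65 ± 0.12 (adjusted p = 0.0292). The arrays of Camk2b and Camk4 did not overlap either, which made 6 of 9 genes with all kiTbr2GFP arrays lower, against 9.38% of all genes, but their adjusted p of 0.193 and 0.233 did not pass. The median difference of the 9 genes was -0.76, and that of all genes 0.02. Hpca differed by -0.21 (95% interval -0.63 to 0.21, adjusted p = 0.942).

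Of these calls that of Camk2a was kept under all 20 alternatives (adjusted p up to 0.0464). The count of genes called was 1 without any single kiTbr2GFP array or without tgTbr2GFP replicate 3, and 2 without tgTbr2GFP replicate 1, the array with the high oligodendrocyte signal. Without that array Camk2a differed by -1.52 (adjusted p = 0.0299) and Ryr2 by -1.13 (adjusted p = 0.0326), while Vsnl1 (-1.02, adjusted p = 0.126) and Ncdn (-0.57, adjusted p = 0.116) did not pass. Vsnl1 also missed the threshold without either PomcGFP array (0.0525), after cyclic loess (0.0577) and after median centring (0.0664). Beside these genes, 5 of 7 dividing cell markers were higher in kiTbr2GFP (list means 8.84 to 9.03, against 7.77 to 7.95), and 2 of 8 astrocyte markers (S100b and Slc1a3), the granule neuron gene C1ql3 and the stress gene Fosb were lower. Astrocyte list means were 8.04 to 8.33 in kiTbr2GFP and 8.60 to 9.14 in tgTbr2GFP. Their part in the result was not tested.

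Both Tbr2 lines were then compared with the Nestin-marked fraction of NesGFP. Here 5 of 9 genes passed, where 48.9% of all genes did, so this count was near the background. Ppp3ca was higher in the Tbr2 lines by 0.98 ± 0.11 (adjusted p = 2.21e-05), where 19.8% of all genes were higher. Lower were Ncdn by -1.65 ± 0.11 (adjusted p = 3.13e-07), Vsnl1 by -1.0 ± 0.23 (adjusted p = 0.00345), Camk2a by -0.95 ± 0.22 (adjusted p = 0.00425) and Camk2b by -0.32 ± 0.12 (adjusted p = 0.0471), 4 of 9 where 29.1% of all genes were. The first 4 of these 5 calls (Ppp3ca, Ncdn, Vsnl1 and Camk2a) held in all 20 alternatives, whereas that of Camk2b was lost in 14, with adjusted p up to 0.191 when a single array was left out and 0.283 after cyclic loess. Those arrays were kiTbr2GFP replicate 2 or 3, NesGFP replicate 1 or 3 and any array of PomcGFP or tgTbr2GFP. The difference of Camkv was -0.63 (adjusted p = 0.0581), of Hpca -0.39 (0.0701), of Camk4 0.36 (0.176) and of Ryr2 0.07 (0.832).

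Each Tbr2 line was also set against the same NesGFP arrays. In kiTbr2GFP 5 genes were lower (Camk2a, Camk2b, Camkv, Ncdn and Vsnl1) where 27.0% of all genes were, and Ppp3ca was higher by 0.84 ± 0.13 (adjusted p = 0.000251), where 18.2% were. All 3 arrays of kiTbr2GFP lay below all 3 of NesGFP for 7 genes, as for 29.7% of all genes. In tgTbr2GFP Ncdn alone was lower (25.8% of all genes), and Camk4, Ppp3ca and Ryr2 were higher (15.8%), with Ppp3ca at 1.11 ± 0.13 (adjusted p = 3.54e-05). All 8 astrocyte, 7 oligodendrocyte, 7 endothelial and 6 mural markers measured were lower in both Tbr2 lines than in NesGFP, with the list means given above. So were all 6 oligodendrocyte precursor markers (list means from 7.25 to 7.72 over the Tbr2 arrays, against 9.64 to 9.76). Of 8 dissociation stress genes, 6 were lower in kiTbr2GFP and 4 in tgTbr2GFP, where Fosb was higher (list means 8.03 to 8.89, against 8.86 to 9.11). Higher were 5 of 7 dividing cell markers (7.77 to 9.03, against 6.51 to 6.78) and 5 of 8 immature neuron markers. Of 8 mature granule neuron markers, Calb1 and C1ql2 were lower in both lines and C1ql3 and Tdo2 in kiTbr2GFP, while Prox1 was higher in both. Of 7 interneuron markers, Pvalb and Slc32a1 were lower in both lines and Gad1 in kiTbr2GFP. Dlx1 was higher in kiTbr2GFP and Sst in tgTbr2GFP. Of 7 pyramidal neuron markers, Wfs1 was lower in both lines. The part of these lists in the values was not tested.

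PomcGFP against NesGFP compares the marked newborn neurons with the Nestin-marked fraction. Of the 9 genes, 5 were higher (Camk2b, Camk4, Hpca, Ppp3ca and Ryr2) where 15.9% of all genes were. By limma 0 were lower, where 24.0% of all genes were (also 0 at an unadjusted p under 0.05). Ryr2 at 2.28 and Ppp3ca at 2.23 were far above the others, the next being Camk4 at 1.06 ± 0.27 (adjusted p = 0.0086). The arrays of the 2 lines did not overlap for 7 genes, as for 27.9% of all genes higher in PomcGFP. Camk2a at 0.53 (95% interval -0.10 to 1.16, adjusted p = 0.169), Camkv at 0.79 (0.0746) and Vsnl1 at 0.58 (95% interval -0.06 to 1.23, adjusted p = 0.139) did not pass. Without PomcGFP replicate 1 the count was 2, Ppp3ca and Ryr2, and Camk4 had an adjusted p of 0.0970, as it had 0.0628 when only these 2 lines were fitted. The astrocyte, endothelial, mural and precursor markers were lower in PomcGFP for every gene measured (8 of 8, 7 of 7, 6 of 6 and 6 of 6), as were 4 of 7 oligodendrocyte markers and 6 of 8 dissociation stress genes (list means 8.09 in PomcGFP, 8.86 to 9.11 in NesGFP), and 6 of 8 mature granule neuron markers were higher. Also higher were 3 of 7 microglia markers (Aif1, Cx3cr1 and C1qa) and 4 of 8 immature neuron markers. Of 7 interneuron markers Gad1 was higher and Pvalb lower, and of 7 pyramidal neuron markers Cpne4 was higher and Wfs1 lower. Of 7 dividing cell markers, 2 were higher and 2 lower. What part these lists had in the values was not tested.

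Other genes of calcium signalling were counted from 7 lists of 64 genes, of which 60 were measured. In PomcGFP against both Tbr2 lines limma called 7 of the 60 higher and 0 lower, beside 2.0% and 1.73% of all genes. The median was 0.16, and at an unadjusted p under 0.05 the counts were 22 and 2. Shares of all genes are given at adjusted p under 0.05 only, so the unadjusted counts have no share to be read against. Between PomcGFP and tgTbr2GFP limma called 0 of the 60, where 0.545% of all genes were higher and 0.823% lower. At an unadjusted p under 0.05, 14 of the 60 were higher and 2 lower. In PomcGFP against NesGFP 18 were higher and 13 lower, where 15.9% and 24.0% of all genes were. In both Tbr2 lines against NesGFP 10 were higher and 21 lower, where 19.8% and 29.1% of all genes were. Of these 4 counts against NesGFP, the 13, the 10 and the 21 were near the shares of all genes, the 13 and the 10 below and the 21 above. All 7 calls of PomcGFP against the Tbr2 lines were lost without PomcGFP replicate 1 (0 called, adjusted p from 0.0600 for Stim2 to 0.315 for Ppp3r1), and 2 were left without replicate 2. The count was 4 without kiTbr2GFP replicate 1 or 3 or tgTbr2GFP replicate 2 or 3. Against NesGFP it was 11 higher without PomcGFP replicate 1. In PomcGFP against kiTbr2GFP alone limma called 11 higher and 0 lower, beside 2.9% and 1.98% of all genes. At an unadjusted p under 0.05 the counts were 23 and 2. The 11 called fell to 4 higher without either PomcGFP array and to 5 without kiTbr2GFP replicate 1 or 3.

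**Figure D4:**
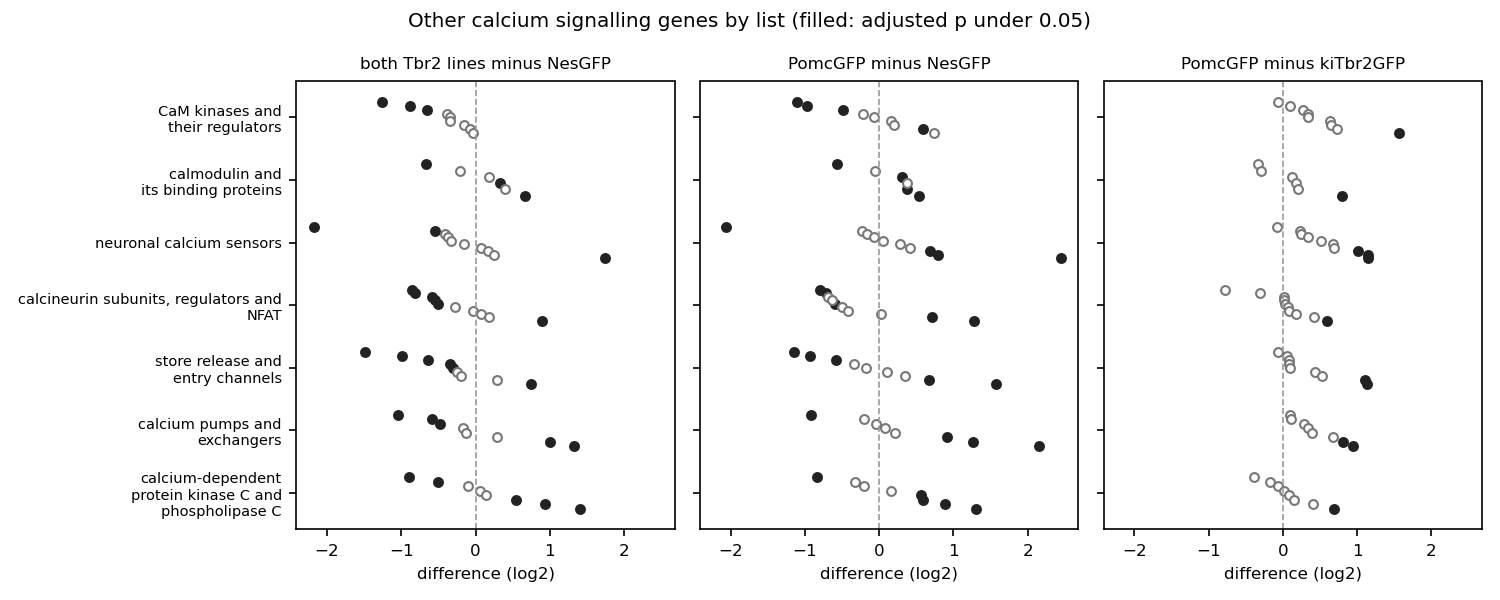
Log2 difference (horizontal axis) of each of the 60 measured genes, by calcium signalling list, in both Tbr2 lines minus NesGFP, PomcGFP minus NesGFP and PomcGFP minus kiTbr2GFP, with filled points for limma adjusted p under 0.05 and open points for the rest. Filled points lie on both sides of 0 in the comparisons with NesGFP (10 higher and 21 lower for the Tbr2 lines, 18 and 13 for PomcGFP) and, against kiTbr2GFP, to the right of 0 (11 higher and 0 lower).

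Among 9 further CaM kinases and regulators measured, limma called 0 higher (0 at an unadjusted p under 0.05) and 3 lower in both Tbr2 lines than in NesGFP, where 29.1% of all genes were lower. They were led by Camk2g, the gamma subunit of CaMKII (-1.26 ± 0.12, adjusted p = 6.02e-06), and Camk1 (-0.88 ± 0.19, adjusted p = 0.00231). Both were also lower in PomcGFP than in NesGFP (-1.10 and -0.97), whereas Camk1g was higher by 0.59 (adjusted p = 0.0404), a call lost under 13 of 20 alternatives (0.174 without PomcGFP replicate 1). Camk2d, the delta subunit, was the single listed gene called between the Tbr2 lines, lower in kiTbr2GFP by -0.95 ± 0.15 (adjusted p = 0.0152), and is named after its value was seen. Mean Camk2g was highest in NesGFP (9.31, against 8.21 in PomcGFP), unlike Camk2a and Camk2b. Of 6 calmodulin genes and calmodulin-binding proteins, Marcks (0.67 ± 0.11, adjusted p = 0.000296) and Pcp4 (0.33 ± 0.08, adjusted p = 0.00396) were higher in the Tbr2 lines than in NesGFP, and Calm3, a calmodulin gene, was lower (-0.67 ± 0.11, adjusted p = 0.000438).

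Of 10 further calcium sensors, 2 were higher in PomcGFP than in both Tbr2 lines: Ncald, neurocalcin delta (0.96 ± 0.15, adjusted p = 0.00462), and Kcnip2, a subunit of Kv4 potassium channels (0.85 ± 0.17, adjusted p = 0.0154). Kcnip3, which also acts as the repressor DREAM, was lower in the Tbr2 lines than in NesGFP by -2.18 ± 0.12 (adjusted p = 1.36e-07), and its relative Kcnip4 was higher by 1.74 ± 0.18 (adjusted p = 1.13e-05). In PomcGFP against NesGFP these were -2.06 ± 0.16 (adjusted p = 3.12e-06) and 2.45 ± 0.23 (adjusted p = 1.3e-05), and Caln1, a calmodulin-like sensor gene, was higher by 0.79 ± 0.18 (adjusted p = 0.00516, and 0.0535 without PomcGFP replicate 1). Among 10 calcineurin and NFAT genes, Ppp3cb, a second catalytic subunit, was, like Ppp3ca, higher in the Tbr2 lines than in NesGFP (0.89 ± 0.10, adjusted p = 2.96e-05), and Ppp3r1, the regulatory subunit, was higher in PomcGFP than in the Tbr2 lines by 0.53 ± 0.11 (adjusted p = 0.0245), a call lost under 7 of 20 alternatives, the replicate block among them (0.0602). Rcan3, a calcineurin inhibitor (-0.86 ± 0.14), and the transcription factor gene Nfatc1 (-0.81 ± 0.11) were among 5 of the 10 that were lower in the Tbr2 lines than in NesGFP (adjusted p = 0.000356 and 9.27e-05), beside 29.1% of all genes.

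Among 9 store channels and sensors, Ryr3, a relative of Ryr2, was higher in the Tbr2 lines than in NesGFP by 0.75 ± 0.13 (adjusted p = 0.000583) and in PomcGFP than in the Tbr2 lines by 0.83 ± 0.15 (adjusted p = 0.0103). For Ryr2 the first of these differences was 0.07 (adjusted p = 0.832) and the second 2.21. Stim2, a calcium sensor of the endoplasmic reticulum, was higher in PomcGFP than in the Tbr2 lines by 0.87 ± 0.12 (adjusted p = 0.00256), whereas Stim1 was lower in the Tbr2 lines than in NesGFP by -0.99 ± 0.16 (adjusted p = 0.000274) and Itpr2, an inositol trisphosphate receptor, by -1.49 ± 0.18 (adjusted p = 3.3e-05). Of 8 pumps and exchangers, the plasma membrane pump gene Atp2b1 was higher in the Tbr2 lines than in NesGFP (1.33 ± 0.16, adjusted p = 3.08e-05) and again in PomcGFP than in the Tbr2 lines (0.82 ± 0.18, adjusted p = 0.0279), the second call being lost under 8 of 20 alternatives (0.0501 after median centring, up to 0.253 without PomcGFP replicate 1). Slc8a1, a sodium-calcium exchanger, was higher in the Tbr2 lines than in NesGFP by 1.00 ± 0.12 (adjusted p = 3.59e-05), and the pump gene Atp2a3 was lower by -1.05 ± 0.14 (adjusted p = 6.53e-05). Slc8a2 was lower in the Tbr2 lines than in NesGFP (-0.58 ± 0.14, adjusted p = 0.00413) and higher in PomcGFP than in the Tbr2 lines (0.66 ± 0.16, adjusted p = 0.0402). The second of these calls was lost under 11 of 20 alternatives: cyclic loess (0.0734), median centring (0.0686), the replicate block (0.0810) and leaving out any array of PomcGFP, kiTbr2GFP or tgTbr2GFP (0.0557 to 0.474, the highest without PomcGFP replicate 2, where the difference was 0.45). Of 8 protein kinase C and phospholipase C genes, limma called 0 between PomcGFP and the Tbr2 lines (2 higher and 1 lower at an unadjusted p under 0.05), while Plcb1 (1.40 ± 0.14, adjusted p = 9.15e-06) and Plcb4 (0.94 ± 0.11, adjusted p = 3.62e-05) were higher in the Tbr2 lines than in NesGFP and Plcb3 (-0.89 ± 0.12, adjusted p = 7.09e-05) and Plcg2 (-0.50 ± 0.10, adjusted p = 0.00116) were lower. Prkcb, a protein kinase C gene, was higher in PomcGFP than in NesGFP by 0.89 ± 0.15 (adjusted p = 0.000563).

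Profiles were compared by the root mean square distance between centred log2 values over the 11 arrays, where a small distance means alike and all genes had a median distance of 0.49 to 1.11 from a member. Within the group, Camk2b and Hpca lay closest (0.25), then Camk2a and Vsnl1 (0.27), and Ncdn and Ppp3ca were farthest apart (1.14). Outside it, the nearest gene to both Camk2a (0.28) and Vsnl1 (0.25) was Rasgrf1, a calcium-dependent exchange factor for Ras, with line means of 8.22 in NesGFP, 6.86 in kiTbr2GFP, 8.14 in tgTbr2GFP and 9.29 in PomcGFP. Stim2 was nearest to Camk2b (0.17), Ahcyl2, a relative of a regulator of inositol trisphosphate receptors, to Camkv (0.26), Eno2, neuronal enolase, to Hpca (0.17), and Tuba4a, an alpha tubulin, to Ncdn (0.24). Lyst, a lysosomal trafficking regulator, was nearest to Ppp3ca (0.15), Ncam2, a cell adhesion molecule, to Ryr2 (0.25), and Aif1, a microglia marker, to Camk4 (0.21). The second nearest gene to Ncdn was Mbp, an oligodendrocyte marker, at 0.27, named after its value was seen.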

How the data were processed

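RNA of sorted dentate gyrus cells was measured on 11 arrays. The authors deposited log2 expression values, made with RMA in the R package oligo (versions not given) per the submitters' processing notes; the log2 scale was read from the range of the values. The deposited table held 28858 probe sets, of which 21789 had a single gene symbol in the platform annotation, 1621 several and 5448 were not listed; 21698 of the single ones matched RefSeq by Entrez number. The probe set with the highest mean stood for a gene, and genes not above the 25th percentile of an array on at least 2 arrays were left out, leaving 16527.

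A cell-means model over all 11 arrays was fitted in limma 3.58.1 (R 4.3.3) with moderated variances, and adjusted p-values (Benjamini-Hochberg) were taken over all genes tested, with 0.05 as the threshold. The fit was also run on simulated data with independent noise and few changed genes. That setting differs from these data, so it does not give their error rates. Numbers of arrays, 2 or 3 a line, limit the precision. The text names all members, for each pathway list the 2 genes with the largest called differences in each direction in the 3 main comparisons, and the gene with the nearest profile to each member. Alternatives were the filter, the probe set rule, cyclic loess, median centring, a trended robust prior, array weights, a replicate block, only the groups compared and leaving out each array. The members and lists were chosen with earlier results of these data known. Promoter windows were searched in Python 3.11.15.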

Additional observations from a re-analysis of the deposited data

Results flagged for a closer look

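The differences of the 2 Tbr2 reporters from NesGFP differed from each other for 4 of the 9 genes, by the limma test of the direct difference kiTbr2GFP minus tgTbr2GFP (all 4 lower, as were 0.684% of all genes). The count was 1, Camk2a, without any single kiTbr2GFP array or without tgTbr2GFP replicate 3, and 2 without tgTbr2GFP replicate 1. Camk2a differed by -1.82: it was lower in kiTbr2GFP than in NesGFP (-1.86), while tgTbr2GFP lay within -0.60 to 0.53 of NesGFP. Ryr2 differed by -1.5, with tgTbr2GFP above NesGFP by 0.82 and kiTbr2GFP at -0.68, which did not pass (adjusted p = 0.0551). Vsnl1 differed by -1.31, from -1.66 in kiTbr2GFP and -0.35 in tgTbr2GFP, the second not past the test (adjusted p = 0.320). Ncdn differed by -0.65, and was lower than in NesGFP in both lines, by -1.97 and -1.32.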

How the results depend on the processing

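Of 44 member differences past the test, 24 kept their call and direction under all 20 alternatives and 20 lost the call in at least 1; none changed direction. The count of members called was 2 for tgTbr2GFP minus NesGFP when only the groups compared were fitted, and 7 for PomcGFP minus tgTbr2GFP with array weights, where the share of all genes higher was 2.88%, against 0.545%. The same alternatives were applied to the pathway genes after seeing the data: the number higher in PomcGFP than in both Tbr2 lines was 19 with array weights and 11 with only the groups compared (4.99% and 3.17% of all genes), and than in kiTbr2GFP 21 and 18 (6.81% and 4.34%).

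With single arrays left out, members called ranged from 3 to 9 for PomcGFP minus both Tbr2 lines, 2 to 6 for PomcGFP minus NesGFP, 1 to 4 for kiTbr2GFP minus tgTbr2GFP and 1 to 4 for PomcGFP minus tgTbr2GFP. Pathway genes higher ranged from 0 to 10 (PomcGFP minus both Tbr2 lines), 11 to 18 (PomcGFP minus NesGFP) and 4 to 14 (PomcGFP minus kiTbr2GFP).

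Values that changed sign were all uncalled. Ryr2 in both Tbr2 lines minus NesGFP became -0.0014 after median centring and -0.062 with array weights, and ranged from -0.12 to 0.20 with arrays left out. Ncdn in PomcGFP minus NesGFP became -0.033 after centring (-0.086 to 0.20 with arrays left out). Camk4 in kiTbr2GFP minus NesGFP became 0.0041 after cyclic loess and 0.27 with weights (-0.28 to 0.27). In tgTbr2GFP minus NesGFP, cyclic loess gave 0.091 for Camk2a and 0.067 for Camk2b; with arrays left out these ranged from -0.34 to 0.25 and -0.23 to 0.0061, and Camkv from -0.53 to 0.0050. Hpca in kiTbr2GFP minus tgTbr2GFP ranged from -0.36 to 0.023. The causes were not tested.

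With the replicate number as a block, members called were 7 for both Tbr2 lines minus NesGFP, 8 for PomcGFP minus both Tbr2 lines, 5 for PomcGFP minus NesGFP, 4 for kiTbr2GFP minus tgTbr2GFP, 7 for kiTbr2GFP minus NesGFP, 4 for tgTbr2GFP minus NesGFP, 8 for PomcGFP minus kiTbr2GFP and 3 for PomcGFP minus tgTbr2GFP. Over 15 pairs of same-numbered arrays, the deviations from line means correlated at -0.11 to 0.26, with 4 pairs over 0.1. The highest were those of replicate 3: kiTbr2GFP with tgTbr2GFP (0.26), kiTbr2GFP with NesGFP (0.15) and NesGFP with tgTbr2GFP (0.13). Arrays with unlike numbers reached at most 0.12. These values do not settle whether the numbers pair the samples. No replicate pairing was used in the main fit.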
